A study of Mus musculus with 12 samples.

Results

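The genes described here are 9 genes by which resident alveolar macrophages are recognised in the mouse lung, Marco, Msr1, Cd68, Itgax, Pparg, Fabp4, Fabp5, Abcg1 and Car4. They were chosen by gene symbol, and all 9 were found among the 23238 symbols counted in 12 libraries of sorted lung cells. The cells had been sorted for the surface proteins CD74 and EpCAM, the gate used for alveolar type II (ATII) cells, so the levels of these genes are described as RNA of macrophages carried along in a preparation meant to be epithelial. How many macrophages it held was not measured. The 4 groups held 3 libraries each, with 1 mouse per library. Con was given phosphate-buffered saline (PBS) and BLM was given 4 mg/kg bleomycin, an agent that injures the lung epithelium and is followed by fibrosis, in both cases into the trachea. KO and KOBLM were the PBS and bleomycin groups of mice named Spc-p300 d/d, in which exon 9 of p300 (Ep300) had been flanked by loxP sites and was cut out by a tamoxifen-activated Cre recombinase (CreERT2) expressed from the surfactant protein C promoter. That promoter is active in ATII cells, so the macrophages of these mice were not the target of the deletion. Tamoxifen was given at 10 mg/kg to mice 8 weeks old. The titles of the Con libraries say WT (wild type), and those of the BLM libraries give no genotype. The study's text calls the Con and BLM mice Spc-p300 f/f in its account of the sequencing and C57BL/6 in its account of the sort. For ATII cells of Spc-p300 f/f mice taken for another assay, vehicle is named as the counterpart of tamoxifen, and what the sequenced controls received is not spelled out, nor is the day on which the cells were taken.

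Alveolar macrophages live in the air space, where they take up particles, bacteria and spent surfactant. They mature after birth under granulocyte-macrophage colony-stimulating factor, which switches on the nuclear receptor PPARγ and with it a programme of lipid uptake, transport and export. After lung injury the resident cells can be lost and monocytes enter the air space, where they become macrophages that at first carry little of the resident programme and only later acquire it. In RNA of a bulk sample, fewer cells of a type and less RNA per cell cannot be told apart.

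Levels are given as CPM, the counts of a gene scaled to the total of its library. The libraries held 7005005 to 11153154 counts, at which 3 counts, taken here as the floor of detection, equal 0.269 to 0.428 CPM. The library kit primes from the poly(A) tail and sequences only the last stretch of each transcript, so a transcript is counted irrespective of its length. The library labelled BLM 3 had the most counts and the fewest genes, and its values correlated with those of BLM 1 and BLM 2 at a Spearman's rho of 0.473 and 0.478 across the genes tested, whereas the other pairs of libraries of the same group lay between 0.693 and 0.889. The counts and medians of the 9 genes in BLM against Con and KOBLM against BLM are given with and without it. Other results are given without it where stated. This alternative was chosen after seeing the data for the gene lists, the medians and the overlap of groups. The level of Ep300 was 51.0 to 143 CPM in Con and 103 to 153 CPM in KO, with a log2 fold change of 0.39 (adjusted p = 1.0 by edgeR), but exon 9 lies away from the sequenced end, so these counts do not check the deletion.

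The labelled cell type was weak in the RNA and the macrophage was strong outside BLM 3. The 12 ATII genes examined, among them the surfactant protein genes, summed to 185 to 2029 CPM over the libraries, and Sftpc alone ranged from 0.554 to 612 CPM. The 9 alveolar macrophage genes summed to 5031, 3791 and 4968 CPM in Con 1, 2 and 3, to 2261, 3159 and 599 CPM in BLM, to 5148, 4695 and 5370 CPM in KO, and to 2732, 4091 and 5704 CPM in KOBLM. They thus exceeded the ATII genes in each of the 12 libraries, by the narrowest margin in BLM 3. There the ATII genes summed to 560 CPM, of which Etv5 alone made 397 CPM. A further 16 genes of resident alveolar macrophages, led by the chitinase-like gene Chil3 with 389 to 30547 CPM, summed to 991 to 48609 CPM. Of the genes that define other sources of the same RNA, the adipocyte hormones Adipoq and Lep, which would mark fat cells rich in Fabp4, had no count in any library. The list of 6 adipocyte genes to which they belong summed to 2.75 to 56.8 CPM. The 7 dendritic cell genes, of interest because dendritic cells also carry Itgax, summed to 26.4 to 221 CPM. The 14 endothelial genes, of interest because capillaries also carry Fabp4 and Car4, summed to 114 to 2945 CPM. The sorting gene Cd74 was present at 460 to 2248 CPM. Epcam, the other sorting gene, ranged from 2.75 CPM in KO 2 to 329 CPM in BLM 3. Macrophages also carry Cd74.

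**Figure D1:**
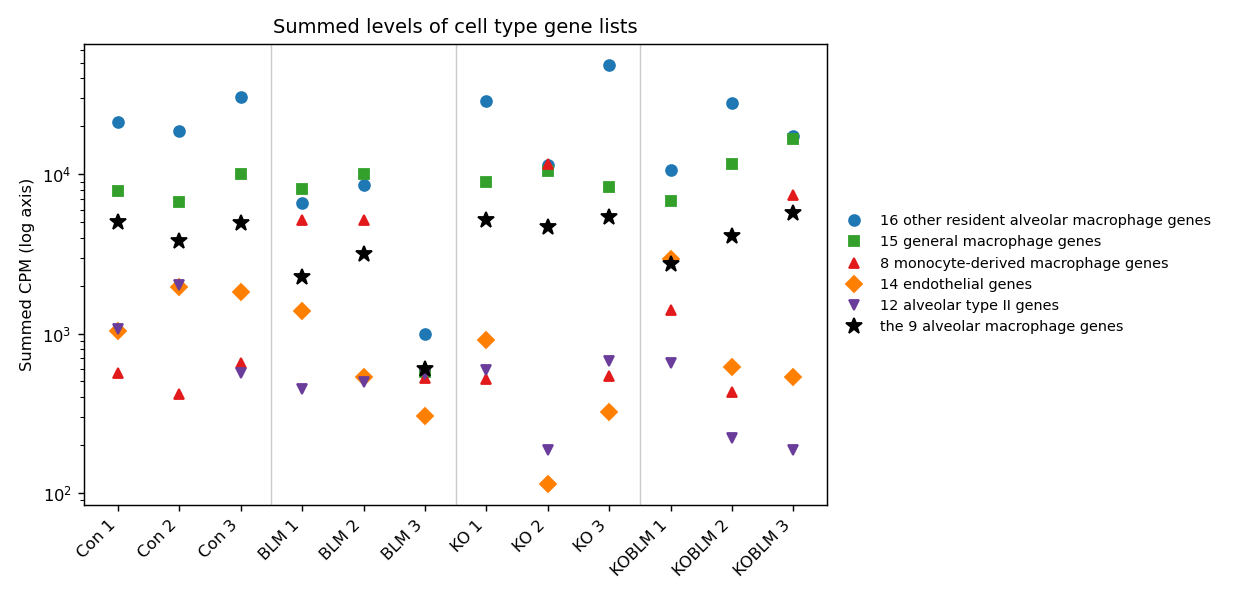
Summed CPM of 6 gene lists (log axis) in each of the 12 libraries, with the groups separated by vertical lines. The stars of the 9 alveolar macrophage genes lie above the ATII genes in each library, and the list of monocyte-derived macrophage genes is at 5190, 5165, 11537 and 7358 CPM in BLM 1, BLM 2, KO 2 and KOBLM 3 and at 1403 CPM or less elsewhere.

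All 9 genes are single protein-coding genes placed by the GENCODE M21 annotation of GRCm38. None of the 426 windows of 75 bases, the read length, in the last 500 bases of the longest coding transcript of each was found in a transcript of another gene. Fabp4 (chr3:10204088-10208576, minus strand) and Fabp5 (chr3:10012548-10016607, plus strand) are neighbours. The RefSeq promoter table of build GRCm38.p6 held 5 of the 9 genes, Marco, Pparg, Itgax, Cd68 and Car4. The 250 bases before the start of Itgax and Car4 are shown because both genes fell in BLM against Con, and those of Marco because it did not pass in that comparison. Capitals mark a match to GAGGAA, the core of sites of the myeloid factor PU.1, or to TGACTCA, the AP-1 site, on either strand. Windows of 300 bases that also take in the 50 bases after the start held the former in 28.3% and the latter in 5.2% of 32851 promoters, and no base of the printed matches belongs to both motifs.

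Itgax (chr7:128129300-128129549, plus strand): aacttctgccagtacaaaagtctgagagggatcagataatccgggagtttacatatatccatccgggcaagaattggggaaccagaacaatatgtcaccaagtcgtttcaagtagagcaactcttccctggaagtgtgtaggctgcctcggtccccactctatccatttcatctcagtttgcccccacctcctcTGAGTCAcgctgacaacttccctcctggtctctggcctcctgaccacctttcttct
Car4 (chr11:84957504-84957753, plus strand): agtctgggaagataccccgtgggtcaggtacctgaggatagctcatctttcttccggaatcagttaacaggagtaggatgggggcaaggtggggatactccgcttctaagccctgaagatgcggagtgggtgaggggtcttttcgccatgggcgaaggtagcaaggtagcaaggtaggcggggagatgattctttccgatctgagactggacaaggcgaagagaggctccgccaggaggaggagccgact
Marco (chr1:120505025-120505274, minus strand): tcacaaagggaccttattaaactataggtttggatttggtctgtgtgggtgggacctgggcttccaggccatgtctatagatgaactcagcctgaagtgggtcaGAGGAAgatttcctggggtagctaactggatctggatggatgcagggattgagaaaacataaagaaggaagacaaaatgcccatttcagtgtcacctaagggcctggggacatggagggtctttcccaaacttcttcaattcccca

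The Itgax window held the AP-1 letters on the minus strand 56 bases before the start, the Marco window held the PU.1 core 146 bases before it, and that of Car4 held neither. These matches describe letters and not occupied sites.

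Among the receptors by which macrophages take up particles and modified lipoproteins, Marco, a scavenger receptor for bacteria and dust, was measured at 291, 431 and 792 CPM in Con 1, 2 and 3 and at 459, 674 and 0 CPM in BLM. It reached 494, 1422 and 758 CPM in KO and 639, 587 and 1447 CPM in KOBLM. All groups overlapped, the highest values were those of KO 2 and KOBLM 3, and BLM 3 had no count. Msr1, scavenger receptor A, which binds oxidised lipoprotein, was the scarcest of the 9 genes in Con, with 10.0, 7.38 and 14.9 CPM. It was found at 440, 328 and 0 CPM in BLM, at 21.5, 289 and 94.8 CPM in KO and at 67.4, 35.4 and 221 CPM in KOBLM. Con lay below the 6 KO and KOBLM libraries and below BLM 1 and BLM 2, and BLM 3 alone lay under Con. Cd68, a glycoprotein of lysosomes found in macrophages of all kinds, stood at 1086, 767 and 1033 CPM in Con and at 721, 749 and 103 CPM in BLM. The values were 1253, 918 and 985 CPM in KO and 456, 748 and 1691 CPM in KOBLM. BLM lay below Con, although BLM 2 was close to the lowest Con library, and KOBLM spread from below BLM 1 to the highest value of all.

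Itgax, the integrin alpha chain CD11c, is carried at a high level by alveolar macrophages and dendritic cells. It was measured at 728, 552 and 522 CPM in Con, at 85.4, 160 and 141 CPM in BLM, at 501, 246 and 744 CPM in KO and at 287, 736 and 317 CPM in KOBLM. The BLM libraries lay below the 9 others without overlap, and the other groups overlapped each other. Unlike most of the genes, Itgax in BLM 3 was within the range of BLM 1 and BLM 2.

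Pparg, the nuclear receptor of the alveolar macrophage lipid programme, was found at 239, 223 and 323 CPM in Con and at 25.3, 134 and 0 CPM in BLM. It was at 359, 99.4 and 193 CPM in KO and at 126, 153 and 118 CPM in KOBLM. Both bleomycin groups lay below Con, KOBLM lay within a narrow range, and KO spread from below KOBLM to above Con. Abcg1, a transporter that moves cholesterol out of the macrophage, had the highest mean of the 9 genes in Con, at 1826, 1141 and 1412 CPM. It was at 94.1, 189 and 2.51 CPM in BLM, at 1668, 222 and 1634 CPM in KO and at 483, 626 and 332 CPM in KOBLM. By group means the order of Abcg1 was Con (1460 ± 345 CPM), KO (1174 ± 825 CPM), KOBLM (480 ± 147 CPM) and BLM (95.03 ± 93.0 CPM), with the SD of 3 libraries each. BLM lay below every library of the other groups, KOBLM lay between BLM and Con without overlap with either, and KO overlapped both Con and KOBLM because KO 2 was far below its companions.

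The intracellular carriers of fatty acids were recorded at lower levels. Fabp4, a target of PPARγ also found in fat cells and capillaries, was at 159, 76.4 and 138 CPM in Con, 75.4, 240 and 0.897 CPM in BLM, 126, 138 and 226 CPM in KO and 36.3, 61.7 and 114 CPM in KOBLM. The groups overlapped except that KOBLM lay below KO. Fabp5, the carrier shared with epithelium, was at 143, 185 and 295 CPM in Con and at 222, 471 and 184 CPM in BLM. It was at 286, 1150.5 and 394 CPM in KO and at 165, 453 and 1327 CPM in KOBLM, so that the same libraries, KO 2 and KOBLM 3, led for Fabp5 as for Marco. Car4, a membrane-bound carbonic anhydrase that alveolar macrophages share with lung capillaries, was at 548, 408 and 438 CPM in Con and at 139, 214 and 167 CPM in BLM. The levels of Car4 were 439, 210 and 340 CPM in KO and 472, 691 and 138 CPM in KOBLM. BLM lay below Con, whereas KOBLM ran from under the lowest BLM library to over the highest Con library.

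**Figure D2:**
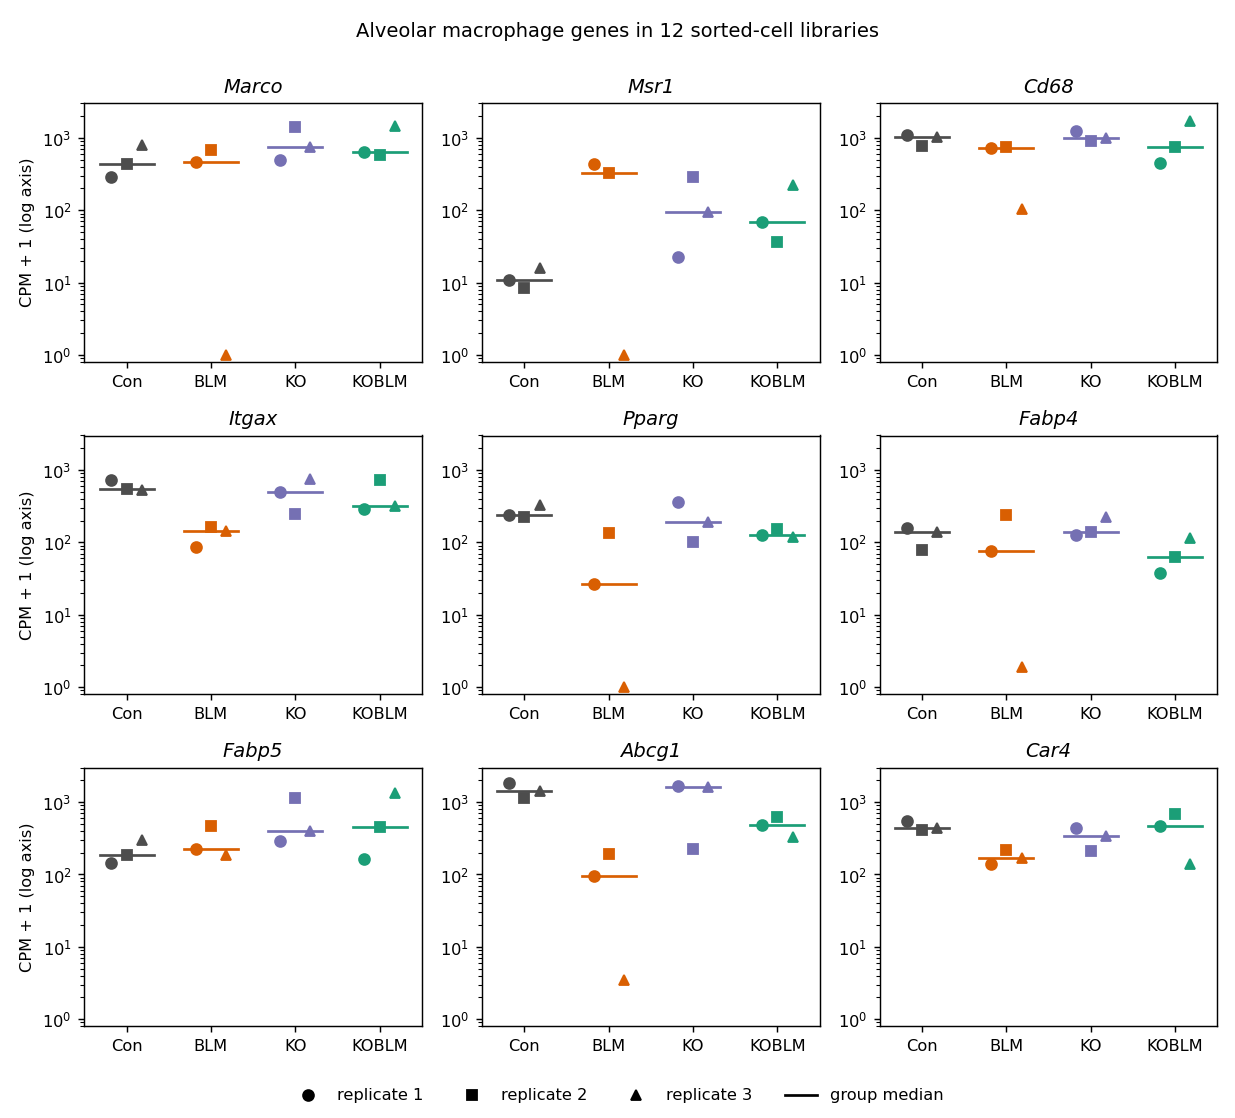
CPM + 1 (log axis) of each of the 9 genes in the 12 libraries, with 1 symbol per library by replicate number and a line at the group median. Itgax, Abcg1 and Car4 lie lower in the 3 BLM libraries than in Con, Msr1 lies near 10 CPM in Con, and BLM 3 sits at 0 for Marco, Msr1 and Pparg.

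Bleomycin in the control mice (BLM against Con) was accompanied by lower Itgax, Abcg1 and Car4 and by higher Msr1. Abcg1 fell by 3.78 ± 1.08 on the log2 scale (SE, derived from edgeR's quasi-likelihood test), Itgax fell by 2.20 ± 0.53 and Car4 fell by 1.39 ± 0.55. These correspond to levels 13.7-fold, 4.58-fold and 2.61-fold lower. Msr1 rose by 4.72 ± 1.77. Passing here means an unadjusted p under 0.05 together with a change of more than 1.5-fold. The 4 of 9 genes that passed compare with 4.27% of the 13054 genes tested, the 3 that fell with 2.08% and the 1 that rose with 2.19%. None of the 4 passed after adjustment over all genes tested (Benjamini-Hochberg adjusted p = 0.995 for each). No gene of the 13054 passed at an adjusted p under 0.05 by edgeR, against 558 at an unadjusted one. DESeq2 gave 114 such genes, with Abcg1 (adjusted p = 0.0179) and Itgax (adjusted p = 0.024) among them.

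The CPM of BLM and Con did not overlap for 5 of the 9 genes, Cd68, Itgax, Pparg, Abcg1 and Car4. All 5 lay lower in BLM, where 11.8% of all genes tested lay lower without overlap. With the scaling used in the fit (TMM), Cd68 overlapped, at 830 CPM in BLM 2 and 773 CPM in Con 2. An exact permutation test of 3 libraries against 3 can give no p under 0.1, and gave this value for these 5 genes. Pparg (-2.11 ± 1.34) did not pass in the fit. Marco (-0.25 ± 1.38), Fabp4 (-0.05 ± 1.10), Fabp5 (0.59 ± 0.78) and Cd68 (-0.75 ± 0.68) did not pass either. The median of the 9 log2 fold changes was -0.75, beside -0.08 for all genes tested, and without BLM 3 it was -0.24, beside 0.05. In CPM the 5 genes that did not overlap stayed below Con without BLM 3, where 14.3% of genes did so. Msr1 then lay above Con, as did 15.9%.

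Without BLM 3, whose zeros enter 3 of these genes, the fall of Abcg1 was 3.20, that of Itgax 2.13 and that of Car4 1.24, and Msr1 rose by 5.30 (adjusted p = 0.0898). Pparg then fell by 1.52, which made 5 genes past the threshold, where 5.45% of 14084 genes tested passed, while Marco and Fabp4 turned to 0.33 and 0.53. Abcg1, Itgax and Msr1 passed in each of the 6 fits that left out 1 library of the pair of groups. Car4 did not pass without Con 1 or without BLM 1, and Msr1 (4.71) did not pass in a fit of these groups alone.

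Of the 16 other genes of the resident alveolar macrophage 8 fell after bleomycin and none rose, with a median log2 fold change of -2.29, and without BLM 3 these were 11 and none, with a median of -1.80. The 4 with the smallest p were Cd9, a tetraspanin (-2.23 ± 0.56), Krt79, a keratin (-3.49 ± 1.03), Ear2, a ribonuclease (-2.75 ± 0.85), and Cidec, a lipid droplet protein (-4.28 ± 1.49). Siglecf, the lectin by which these cells are usually gated, was at 175 to 198 CPM in Con and at 20.8, 32.3 and 0 CPM in BLM. By contrast, of 15 genes of macrophages in general 3 rose and 1 fell, the complement genes C1qa (5.92 ± 1.94), C1qb (5.53 ± 2.01) and C1qc (6.69 ± 2.42) being higher and the leukocyte phosphatase Ptprc (-1.64 ± 0.64) lower, while 7 rose and 1 fell without BLM 3. Of 8 genes of macrophages recently derived from monocytes 1 rose, Arg1, which encodes an arginase, from 6.29, 0 and 0 CPM in Con to 3736, 2543 and 79.0 CPM in BLM, and 3 rose without BLM 3.

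In the pathway that specifies the resident cell the median log2 fold change was -1.02, with 2 of 14 estimates positive. Among the lipid genes downstream it was -1.11, with 2 of 15 positive, and for all genes tested it was -0.08. Without BLM 3 these medians were -0.46, -0.71 and 0.05. Of 14 tested genes of granulocyte-macrophage colony-stimulating factor and PPARγ signalling, 1 rose, the kinase gene Jak2 (2.12 ± 0.93), and 1 fell, Rxra (-2.77 ± 1.18), the partner with which PPARγ binds DNA. Rxra was at 134, 144 and 181 CPM in Con and at 26.1, 34.3 and 0.0897 CPM in BLM, without overlap, and fell by 2.19 without BLM 3. The receptor gene Csf2rb was at 362 to 738 CPM in Con and at 273, 459 and 0.269 CPM in BLM. Of 15 genes of lipid handling 1 rose, Apoe (3.80 ± 1.27), an apolipoprotein that accepts exported cholesterol, and none fell. Of 11 other scavenger receptor genes Scarb2 (-1.48 ± 0.54), of lysosomes, and Mrc1 (-1.65 ± 0.61), the mannose receptor, fell. Mrc1 is also in the list of other resident macrophage genes and was counted there too. Without BLM 3 the same genes passed in the PPARγ and scavenger receptor lists. Of the lipid genes Lpl, which is also in the resident list, and Nceh1 fell beside the rise of Apoe.

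Genes of other cells moved beside these. The 14 endothelial genes summed to 1035 to 1945 CPM in Con and to 301 to 1393 CPM in BLM, and none of them passed. Of their defining genes Cdh5 was at 97.9 to 118 CPM in Con and 24.7 to 102 CPM in BLM. Capillaries also carry Car4, and the part of these genes in the result of Car4 was not tested. The 8 monocyte-derived genes summed to 416 to 653 CPM in Con and to 5190, 5165 and 526 CPM in BLM, the order in which Msr1 ran in the BLM libraries, and whether they share a source was not tested. Of the 12 ATII genes Sftpa1, Sftpc and Hc fell. Without BLM 3 the same genes fell and Napsa rose (1.64 ± 0.56). Of 6 dendritic cell genes tested, 5 neutrophil genes, 1 adipocyte gene and the 2 sorting genes, none passed in this comparison. The sums were 26.4 to 221 CPM for the dendritic cell genes and 104 to 5696 CPM for the neutrophil genes over the 6 libraries.

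**Figure D3:**
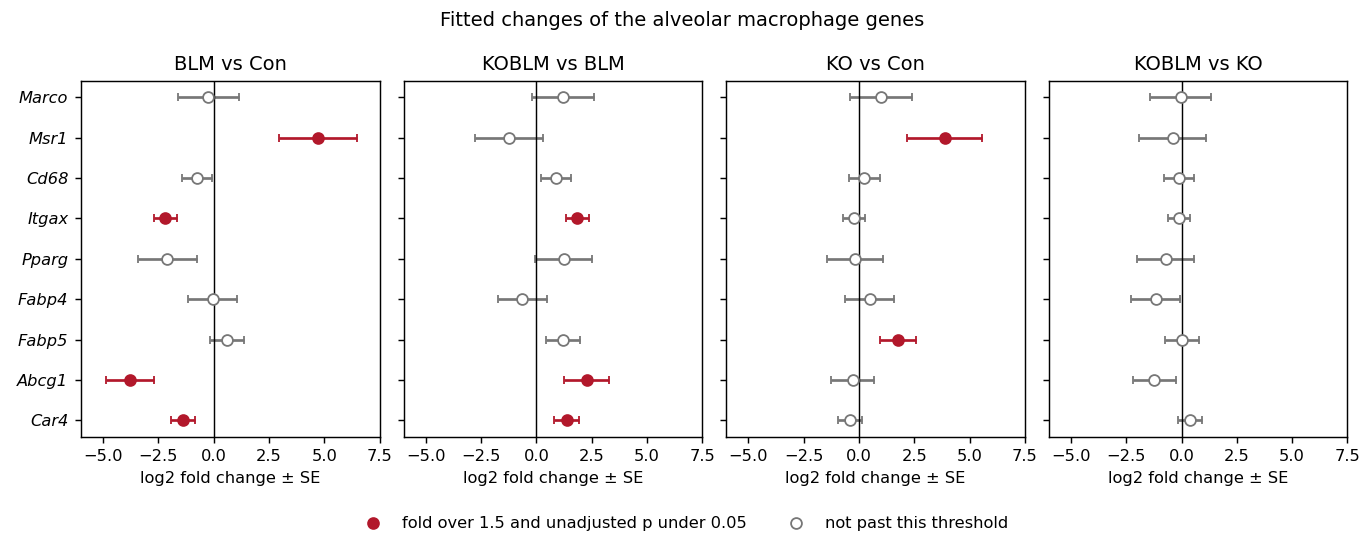
Log2 fold changes of the 9 genes with their standard errors in 4 comparisons, from edgeR's fit of the 4 groups with 3 libraries each. Filled red points changed more than 1.5-fold with an unadjusted p under 0.05. Abcg1, Itgax and Car4 are red on the left for BLM against Con and on the right for KOBLM against BLM, and no gene is red for KOBLM against KO.

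Deletion of p300 in ATII cells under bleomycin (KOBLM against BLM) was accompanied by higher Itgax, Abcg1 and Car4. Itgax rose by 1.85 ± 0.52 on the log2 scale, Abcg1 rose by 2.27 ± 1.02 and Car4 rose by 1.36 ± 0.55, which are 3.61-fold, 4.82-fold and 2.57-fold higher levels. The adjusted p was 1.0 for each. The 3 of 9 genes compare with 3.16% of all genes tested that passed and with 1.39% that rose, and none of the 9 fell. By edgeR 413 genes passed at an unadjusted p and none at an adjusted one, and DESeq2 gave 78 at an adjusted p under 0.05, none of them among the 9.

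Itgax and Abcg1 did not overlap between KOBLM and BLM, where 6.04% of all genes lay higher without overlap, but Car4 did, because KOBLM 3, at 138 CPM, was below the 3 BLM libraries. Marco (1.22 ± 1.40), Fabp5 (1.20 ± 0.79), Pparg (1.23 ± 1.30) and Cd68 (0.89 ± 0.68) had positive estimates that did not pass, and the estimates of Msr1 (-1.23 ± 1.54) and Fabp4 (-0.63 ± 1.11) were negative and did not pass. The median of the 9 was 1.22, beside 0.10 for all genes, and without BLM 3 it was 0.64, beside -0.06. Without BLM 3 the values of Itgax and Abcg1 still did not overlap, as for 7.48% of genes that lay higher, and Msr1 lay lower in KOBLM, as did 15.1%. These comparisons share the BLM libraries with BLM against Con, so a low value in BLM enters both.

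Without BLM 3 these 3 genes still passed, as did 3.34% of genes tested, Itgax at 1.78, Abcg1 at 1.69 and Car4 at 1.21. Itgax passed in each of the 6 fits with 1 library left out. Abcg1 (1.69 to 3.33 over these fits) and Car4 (0.91 to 1.77) passed in 3 of them and did not pass without BLM 1, without KOBLM 1 or without KOBLM 2. In a fit of these groups alone Itgax was the only gene of the 9 to pass.

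Of the 16 other resident macrophage genes 4 rose and none fell (median 1.80), Cd9 (1.70 ± 0.55), Atp6v0d2, a proton pump subunit (2.15 ± 0.80), Krt79 (2.58 ± 0.99) and Cidec (3.11 ± 1.42). Csf2ra (1.39 ± 0.60), the alpha chain of the receptor for granulocyte-macrophage colony-stimulating factor, was the 1 gene of 14 of its pathway to pass, and Soat1 (1.47 ± 0.58), which esterifies cholesterol, was the 1 of 15 lipid genes. Of the macrophage genes in general Ptprc (1.85 ± 0.65) and the lysozyme gene Lyz2 (2.45 ± 1.03) rose. None of the 11 scavenger receptor genes, the 8 monocyte-derived genes or the 12 ATII genes passed, and of the 14 endothelial genes Aplnr rose, where its fitted size rests on low counts. The endothelial genes summed to 536 to 2945 CPM in KOBLM, highest in KOBLM 1, and their part in the value of Car4 was not tested. Without BLM 3, 6 of the 16 resident genes rose (median 1.29) and Rxra was the 1 PPARγ pathway gene that rose. Lipa, Lpl and Soat1 were the lipid genes that rose, and no endothelial gene passed. Of the 2 sorting genes Cd74 fell without BLM 3 (-1.25 ± 0.54), and neither passed with it.

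The KOBLM libraries were not alike. KOBLM 2 had Siglecf at 251 CPM and Itgax at 736 CPM, above the 3 Con libraries, no count of Arg1, and Abcg1 at 626 CPM and Pparg at 153 CPM, below them. KOBLM 3 had Siglecf at 23.8 CPM, Itgax at 317 CPM and Arg1 at 748 CPM, and KOBLM 1 had Siglecf at 26.4 CPM and Arg1 at 53.4 CPM.

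Deletion without bleomycin (KO against Con) was accompanied by higher Msr1 and Fabp5. Msr1 rose by 3.88 ± 1.70 on the log2 scale, a 14.7-fold higher level, and Fabp5 rose by 1.76 ± 0.80, or 3.40-fold. The adjusted p of each was 1.0, and 2 of 9 compare with 1.44% of all genes tested that passed and 0.536% that rose. By edgeR 188 genes passed at an unadjusted p and none at an adjusted one, and DESeq2 gave 80 at an adjusted p, none among the 9. The values of Msr1 did not overlap, where 2.18% of genes lay higher without overlap. Those of Fabp5 did, since KO 1 was at 286 CPM and Con 3 at 295 CPM. With TMM scaling those of Fabp5 did not overlap either, with KO 1 at 298 CPM and Con 3 at 275 CPM.

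Neither gene passed without KO 2. Without it Msr1 was at 2.42 and Fabp5 at 0.74, and none of the 9 genes passed, where 0.627% of all genes tested did. Of the 6 fits with 1 library left out Msr1 passed in 2 and Fabp5 in 3, and Fabp5 (1.55) did not pass when scaled by library size alone. KO 2 had been given PBS by its label but had 8.93 CPM of Siglecf against 203 and 400 CPM in KO 1 and KO 3, 1128 CPM of Arg1 against 4.56 and 0 CPM, and 8300 CPM of Spp1, an osteopontin gene of monocyte-derived macrophages, against 103 and 192 CPM. Its Abcg1, Itgax and Pparg were the lowest of the KO libraries and its Marco, Msr1 and Fabp5 the highest. The library also had the largest share of counts on Rn45s, a ribosomal RNA entry, at 21.6%. The other 7 genes did not pass, from -0.40 ± 0.54 for Car4 to 1.0 ± 1.39 for Marco, and the median of the 9 was 0.25 beside -0.09 for all genes. None of the 16 resident macrophage genes passed, and Spp1, Arg1 and C1qa rose, with the highest value of each in KO 2, while no gene of the other lists passed. The 14 endothelial genes all had negative estimates, with a median of -1.81, beside -0.09 for all genes. They summed to 114 to 907.5 CPM in KO against 1035 to 1945 CPM in Con. Without KO 2 no gene of any list passed, and the endothelial estimates stayed negative (median -1.28). The part of the endothelial genes in the values of Car4 and Fabp4 was not tested.

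**Figure D4:**
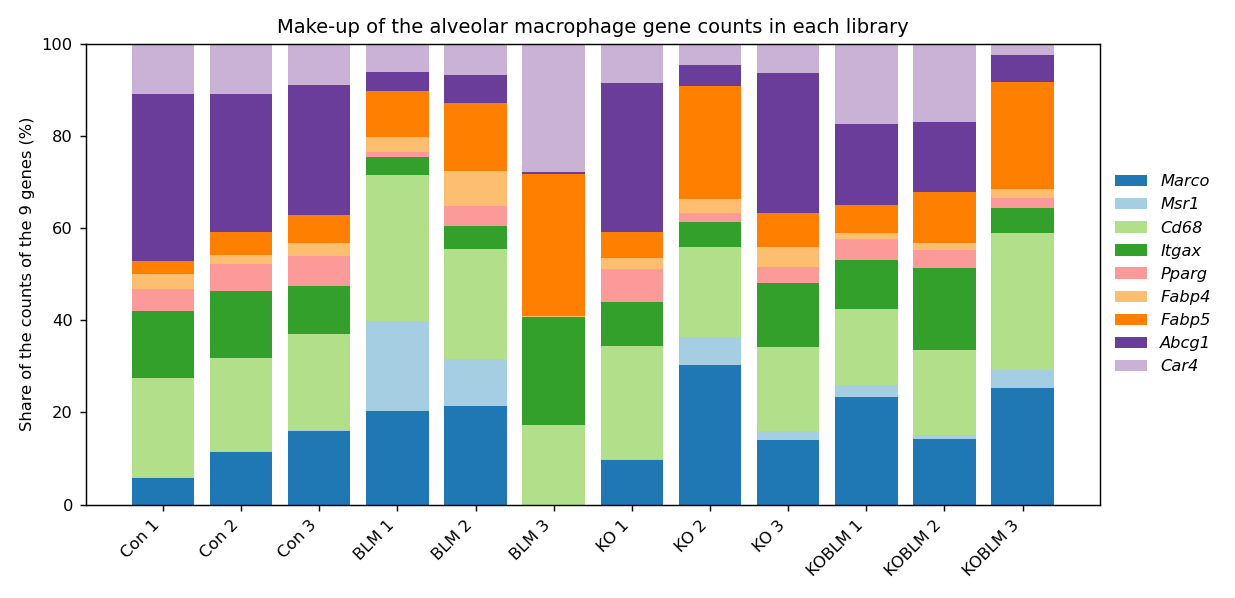
Share of the counts of the 9 genes, in percent, that each gene took in each of the 12 libraries (stacked bars add up to 100). Abcg1 takes 28.4% to 36.3% in Con and 0.419% to 5.97% in BLM, and KO 2 and KOBLM 3 resemble BLM 1 and BLM 2 in its share.

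Bleomycin in the mice without p300 in ATII cells (KOBLM against KO) was accompanied by no change that passed in the 9 genes, where 1.69% of all genes tested passed. By edgeR 221 genes passed at an unadjusted p and none at an adjusted one, and DESeq2 gave 57 at an adjusted p, none among the 9. Fabp4 was the 1 gene whose values did not overlap, lower in KOBLM, where 2.87% of genes lay lower without overlap. The log2 fold change of Fabp4 was -1.17 ± 1.12, and that of Abcg1 was -1.23 ± 0.98. The others lay between -0.70 ± 1.29 for Pparg and 0.38 ± 0.54 for Car4, and the median of the 9 was -0.12. No resident macrophage, monocyte-derived, lipid or scavenger receptor gene of the lists passed. Jak2 rose (3.12 ± 0.97) and the ATII list gene Hc fell. Without KO 2 none of the 9 genes passed either, Pparg, Fabp4 and Abcg1 lay lower in KOBLM without overlap, as did 8.75% of genes, and Apoe (3.52 ± 1.09), Spp1 (3.45 ± 1.32) and Arg1 (6.92 ± 3.22) rose.

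Whether bleomycin acted differently with and without the deletion was asked with an interaction term. Itgax (2.07 ± 0.72) and Car4 (1.77 ± 0.77) had positive values, with estimates of -2.20 and -1.39 in the control mice against -0.12 and 0.38 in those with the deletion, and Msr1 had a negative one (-5.11 ± 2.27), with an adjusted p of 1.0 for each. The 3 of 9 genes compare with 2.82% of all genes, the 2 positive ones with 1.51% and the negative one with 1.31%. By edgeR 368 genes passed at an unadjusted p and none at an adjusted one, and DESeq2 gave 85 at an adjusted p, none among the 9. Abcg1 (2.54 ± 1.39) did not pass. Itgax passed in each of the 12 fits with 1 library left out, whereas Car4 and Msr1 passed in 4 of them and were lost, among others, without KO 2. Without BLM 3, 5 of the 9 genes passed, where 4.63% of all genes did. Genes of other cells moved beside these. The 14 endothelial genes all had positive interaction values (median 2.82, beside 0.23 for all genes tested), of which Kdr (3.03 ± 1.31) passed. Car4 is also a capillary gene. The 16 other resident macrophage genes were all positive too (median 1.93), and none of them passed. Arg1 (-10.78 ± 4.16), C1qa (-6.15 ± 2.40), C1qb (-5.96 ± 2.52) and C1qc (-6.66 ± 2.93) passed with negative values beside Msr1, and Ptprc (2.01 ± 0.89) with a positive one. Without KO 2 none of these list genes passed, and the median of the 8 monocyte-derived genes turned from -1.47 to 1.32. The part of these genes in the values of Car4 and Msr1 was not tested.

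Since a library that holds fewer macrophages has less of each of their genes, the make-up of the counts of the 9 genes was examined within each library. Such shares do not depend on the library total. Abcg1 took 36.3%, 30.1% and 28.4% of these counts in Con, 4.16%, 5.97% and 0.419% in BLM, 32.4%, 4.73% and 30.4% in KO and 17.7%, 15.3% and 5.82% in KOBLM. The share of Cd68 was steadier, at 20.2% to 21.6% in Con and 16.7% to 31.9% over the other 9 libraries. Fabp5 took 2.84% to 5.94% in Con and 9.81% and 14.9% in BLM 1 and BLM 2. It took 30.8% in BLM 3, where Marco, Msr1 and Pparg had no count. Because the shares add up to 100, a lower share of Abcg1 raises those of the other genes. The CPM of Fabp5 overlapped between Con and BLM.

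Msr1 and Abcg1 ran in opposite directions in most libraries. For every 100 counts of Abcg1 there were 0.549, 0.646 and 1.06 counts of Msr1 in Con, against 468 and 174 in BLM 1 and BLM 2 and none in BLM 3. KO 1, 2 and 3 had 1.29, 130 and 5.80, and KOBLM 1, 2 and 3 had 13.97, 5.64 and 66.6. The 4 libraries with the highest ratio, BLM 1, BLM 2, KO 2 and KOBLM 3, were those with the highest sums of the 8 monocyte-derived genes (5190, 5165, 11537 and 7358 CPM). Whether the ratio reflects the origin of the macrophages was not tested.

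The 9 genes did not vary as 1 group over the 12 libraries. Spearman's rho, given as a description over libraries that share their groups and include BLM 3, was highest for Pparg with Abcg1 (0.909), Itgax with Abcg1 (0.839), Marco with Fabp5 (0.804) and Itgax with Pparg (0.713). Without BLM 3 these were 0.882, 0.800, 0.809 and 0.636 over 11 libraries. Msr1 with Abcg1 went from -0.399 over 12 libraries to -0.818 over 11. Between Itgax, Pparg, Abcg1 and Car4 the lowest value over 12 libraries was 0.643, that of Itgax with Car4.

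The genes whose levels were most like the mean log2(CPM + 1) of the 9, of 8934 genes with a mean of at least 10 CPM, were Lgals3 (rho 0.951), the galectin gene of macrophages, Anxa4 (0.937), Med8 (0.916), Bmx (0.902), Atg5 (0.888) and Lamtor3 (0.881), over 12 libraries. Without BLM 3, 5 of these 6 were among the first 6 again, with Gpr137b-ps (0.864) in place of Lamtor3. Lgals3 spanned 131 to 3579 CPM.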

How the data were processed

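Messenger RNA of sorted ATII cells from 12 mice was sequenced with the QuantSeq 3′ mRNA kit in single-end reads of 75 bases. What the authors deposited are raw counts of reads per gene symbol, not normalized, in 1 file per library. Per the labels, the submitters' processing notes name Bowtie2, edgeR and mm10, and their versions are not given in the sources used here. Groups and replicate numbers were taken from the labels. The 79 entries of 35 repeated symbols were summed.

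With edgeR 4.0.16, the filterByExpr rule (minimum count 10, minimum total 15) kept 13054 genes including the 9 reported, which were scaled by the TMM method (factors 0.836 to 1.25) and fitted with the quasi-likelihood model of the 4 groups (8 residual degrees of freedom, common dispersion 2.08). All tests were two-sided, and a gene was counted as passing with a change of more than 1.5-fold and an unadjusted p below 0.05, the threshold of the study, whose statistics section names no test for the sequencing. CPM used the library total, and 1 was added before taking logs for the correlations. The SE of a log2 fold change was taken as its size divided by the square root of the F statistic of its test. The fold change itself includes a prior count of 0.125, so for genes with zeros the SE is approximate. Intervals by SE and the floor of 3 counts describe these libraries, each from a different mouse as far as the labels say. The script was tested on simulated counts. DESeq2 1.42.0 was an alternative, with its size factors, library size alone, no filter, a block by replicate number, a fit restricted to the groups of the comparison, an adjusted p and the omission of each library. Medians, gene lists and overlaps without BLM 3 or KO 2 were added after seeing the data.

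The 9 genes, the lists (other resident macrophage, granulocyte-macrophage colony-stimulating factor and PPARγ, lipid, scavenger receptor, general macrophage, monocyte-derived, dendritic cell, neutrophil, endothelial, adipocyte, ATII and sorting genes) and the tests were chosen with earlier results of these data known. From each list, the genes past the threshold (at most 4 by smallest p in a comparison), those at 0 in every library and the defining markers could be named. Some lists share genes, among them Mrc1 and Lpl. A gene of the general macrophage list is not reported here. Aligned reads were not analysed here.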

Additional observations from a re-analysis of the deposited data

Results flagged for a closer look

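The estimated effect of bleomycin differed between the genotypes in 3 of the 9 genes at an unadjusted p under 0.05, by edgeR's interaction. In this fit of 3 libraries per group 2.82% of all genes tested passed, and the adjusted p was 1.0 for each of the 3. Itgax passed in each of the 12 fits with 1 library left out, and Car4 and Msr1 in 4 of them. For Itgax the difference of log2 fold changes was 2.07, with all 3 BLM libraries below Con and KOBLM 2 above each Con library. For Car4 it was 1.77, with KOBLM ranging from 138 to 691 CPM. For Msr1 it was -5.11, with Con at 7.38 to 14.9 CPM and KO 2 at 289 CPM.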

How the results depend on the processing

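Of the 9 genes, 4, 3, 2, 0 and 3 passed in BLM against Con, KOBLM against BLM, KO against Con, KOBLM against KO and the interaction. Among all genes tested 4.27%, 3.16%, 1.44%, 1.69% and 2.82% passed in these comparisons, in the same order. With an adjusted p under 0.05 in this fit none passed in any of these, and Abcg1 in BLM against Con passed in edgeR without the filter (adjusted p = 0.0401), which gave 5 genes there (Pparg added) and 4 in the interaction (Abcg1 added). A fit of only the groups compared left 1 gene (Itgax) in KOBLM against BLM and gave 1 (Fabp4) in KOBLM against KO. In KO against Con library size alone left 1 (Msr1) and the replicate block 0 (Msr1 3.64, Fabp5 1.58), and the block left 1 (Itgax) in the interaction. Leaving out 1 library at a time gave 3 to 5 genes in BLM against Con, 1 to 4 in KOBLM against BLM, 0 to 2 in KO against Con, 0 in KOBLM against KO and 1 to 5 in the interaction. None of 18 same-numbered pairs of libraries correlated above 0.1 in their deviations from the group means (-0.117 to 0.096, other pairs -0.103 to 0.150). A correlation across all genes cannot exclude a pairing that touches only some of them. The median of all genes shifted from -0.09 to -0.21 in KO against Con with library size alone.

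With 1 library left out 17 of the 45 estimates changed sign, 6 of them in KOBLM against KO, none of which had passed. In KOBLM against KO, Marco was 0.14 with the replicate block, and Fabp5 was -0.053 with DESeq2 or its size factors and -0.022 without the filter. BLM against Con ranged, over the fits with 1 library left out, from -1.05 to 0.33 for Marco, -1.62 to 0.53 for Fabp4 and -0.095 to 0.91 for Fabp5, and KOBLM against BLM from -1.22 to 0.94 for Fabp4. KO against Con ranged from -0.50 to 0.074 for Itgax, -0.78 to 0.15 for Pparg and -0.69 to 0.22 for Abcg1. KOBLM against KO ranged from -0.64 to 0.62 for Marco, -1.53 to 1.06 for Msr1, -0.86 to 0.22 for Cd68, -0.62 to 0.15 for Itgax, -1.13 to 1.05 for Fabp5 and -0.072 to 0.79 for Car4. The interaction ranged from -0.38 to 1.01 for Marco, -0.11 to 1.07 for Cd68, -1.71 to 0.45 for Fabp4 and -1.72 to 0.49 for Fabp5. The causes were not tested. With 3 libraries per group and a common dispersion of 2.08, differences within the SEs given are not detectable. Mean CPM moved by less than 1 SD with TMM scaling or without Rn45s. With TMM scaling Cd68 came to overlap in BLM against Con, and Fabp5 ceased to overlap in KO against Con.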
